A study of Mus musculus with 2 samples.

Results

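Mesothelial and collagen-expressing barcodes were chosen by the UMIs of a few genes in 2 single-cell libraries of sorted mouse blood. A barcode marks 1 droplet, and a unique molecular identifier (UMI) counts 1 captured transcript molecule. A barcode was a member if it held no UMI of Ptprc, which encodes the leukocyte surface protein CD45, and UMIs of at least 2 of 12 genes. Of these rule genes, 9 mark mesothelium (Gpm6a, Muc16, Wt1, Upk3b, Upk1b, Msln, Lrrn4, Bnc1 and Krt19) and 3 encode collagen-rich matrix (Dcn, Col3a1 and Col1a2). No limit was set on the number of detected genes or on the share of mitochondrial UMIs. The rule found 79 of 1857 barcodes, which were 42 of 1008 in replicate 1 (4.17%, exact Clopper-Pearson 95% interval 3.02 to 5.59%) and 37 of 849 in replicate 2 (4.36%, 3.09 to 5.96%), or 4.26% ± 0.135 (SD, n = 2). Because these 12 genes and Ptprc chose the members, their levels are a description and carry no test, and the same holds for any level in members beside other barcodes.

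The mice of both libraries were wild type and had undergone burn/tenotomy, a skin burn joined with the cutting of a tendon, which is used to provoke bone formation in soft tissue. Their blood was sorted on the iChip, which enriches rare cells by microfluidics, before single cells were barcoded on the 10x Chromium. The labels call the cells cMPCs and blood cells, without spelling out the abbreviation. Samples of uninjured mice were not analysed here, so no value below is a contrast with injury. The labels do not say whether the replicates were separate mice. The p-values rest on how a difference within a library varied between these libraries, which may be technical, and on spread borrowed across genes. Intervals cover counting error only.

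Mesothelium is the single-layered lining of the body cavities and of the organs within them, including the pericardium, the pleura and the peritoneum. Its cells carry keratins as epithelia do, but arise from mesoderm and can take on a fibroblast-like state in which they make collagen. Wt1 is a transcription factor of the embryonic and adult mesothelium, Msln and Muc16 are surface glycoproteins that bind each other, and Upk3b and Upk1b are uroplakins found in mesothelium as well as in the bladder lining. Dcn encodes the collagen-binding proteoglycan decorin, and Col3a1 and Col1a2 encode chains of the fibrillar collagens.

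Members fell on both sides of a mitochondrial share of 20%, a limit often set to remove damaged cells. Above 20% were 24 members of replicate 1 and 22 of replicate 2, and at or below it were 18 and 15. The share above the limit was 57.1% in replicate 1 and 59.5% in replicate 2 (58.3% ± 1.64, SD, n = 2). Members above 20% were shallow, with a median of 362.5 and 428 non-mitochondrial UMIs in replicates 1 and 2, against 3371.5 and 5798 in members at or below 20%. They held a median of 229.5 and 268.5 genes, against 1512.5 and 2412. The extremes overlapped, since members above 20% reached 4099 non-mitochondrial UMIs and members at or below 20% went down to 636. In sum, 31576 non-mitochondrial UMIs stood behind the members above 20% and 168115 behind those at or below, and levels below are UMIs per 1000000 (CPM) of such totals. The libraries had 0 barcode sequences in common.

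**Figure D1:**
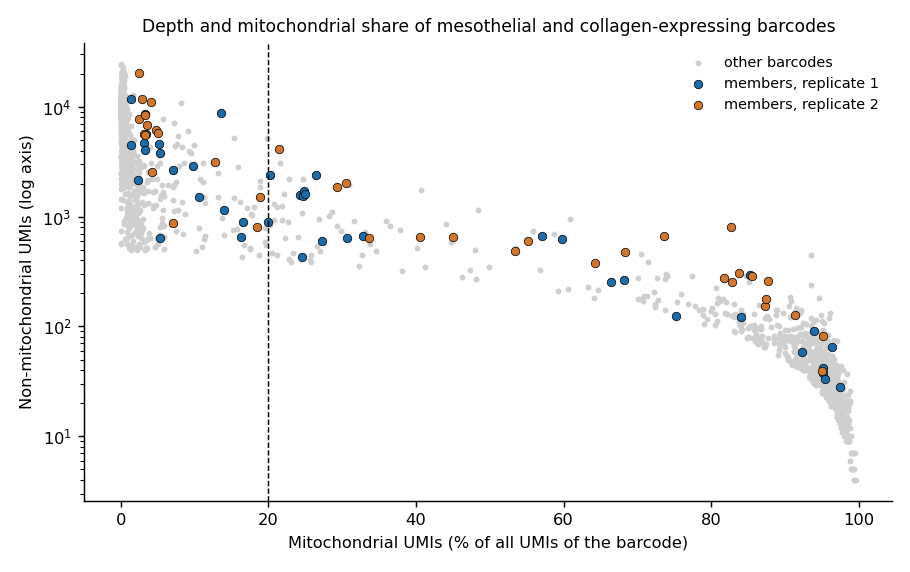
Non-mitochondrial UMIs (log axis) against the mitochondrial share of all UMIs, 1 point per barcode, with the 79 members coloured by replicate, all other barcodes in grey and the 20% limit dashed. Members form a continuous band in which depth declines as the mitochondrial share grows, and 5 members lie between 15 and 20% and 7 between 20 and 25%.

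The 6 markers given for this cell type were each found on both sides of the limit, but Wt1, Krt19 and Muc16 had few UMIs above 20%. Most members with Wt1 or with Muc16 lay at or below 20%. Wt1 had 4 and 6 UMIs in members above 20% and 62 and 88 UMIs in members at or below 20% (replicates 1 and 2), and was found in 36 of the 79. Muc16 had 9 and 12 UMIs above 20%, against 86 and 116, and was also found in 36. Upk3b had 38 and 41 UMIs above 20%, against 53 and 100, and was found in 48. These 3 genes showed their UMIs in both libraries on both sides, with the larger raw numbers in the deeper members at or below 20%. Relative to the non-mitochondrial UMIs of each side, Wt1 and Muc16 were lower above 20% in both libraries, while Upk3b was higher. Krt19, a keratin of simple epithelia, had 8 and 5 UMIs above 20%, against 53 and 90. Dcn had 32 and 16 UMIs above 20%, against 88 and 135, and was found in 55 members. Col3a1 had 17 and 19 UMIs above 20%, against 73 and 241, and was found in 44.

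Relative to depth, the sums of the rule genes did not separate the sides, though Wt1 and Upk3b moved in opposite ways. The rule itself set part of this. A shallow barcode was a member only if it held enough rule genes, which keeps its level of them high. These sums therefore cannot decide whether the sides differ in rule genes. The 9 mesothelial rule genes together gave 6760 and 7579 CPM in members above 20% and 6309 and 7715 CPM in members at or below 20%. The 3 collagen rule genes gave 3688 and 3463 CPM above 20%, against 2710 and 4381 CPM. In both cases the values above 20% lay within the range of those at or below. Among barcodes with a Ptprc UMI the mesothelial rule genes gave 21.9 and 372 CPM, and the collagen rule genes 49.2 and 0 CPM. Red cell barcodes, defined here as those without Ptprc whose non-mitochondrial UMIs were at least 50% haemoglobin and whose mitochondrial share was at most 20%, show how often these genes appear in a blood cell type that should lack them. Of 845 such barcodes, 4 held any mesothelial rule UMI and 0 a collagen rule UMI, while members had a median depth of 798 non-mitochondrial UMIs and these red cell barcodes one of 6005. Other barcodes above 20% without Ptprc held 792 and 537 CPM of the mesothelial and 849 and 767 CPM of the collagen rule genes. Members were left out of these barcodes, so each held too few rule genes to meet the rule. Their lower levels thus follow in part from the rule and are not a measure of background. Free RNA in barcodes as shallow as the members above 20% was not tested.

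**Figure D2:**
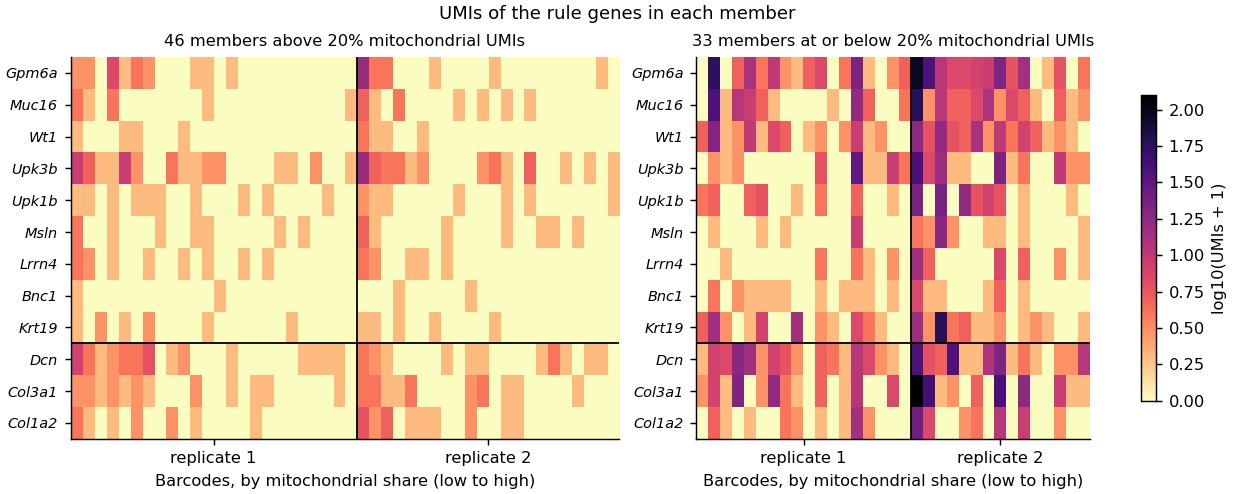
UMIs of the 12 rule genes, as log10(UMIs + 1), in each of the 46 members above 20% (left) and the 33 at or below 20% mitochondrial UMIs (right), 1 column per barcode, ordered by mitochondrial share within a replicate. The horizontal line parts the 9 mesothelial from the 3 collagen genes, and most columns hold genes from both blocks.

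How mesothelial and collagen genes were combined follows in part from the rule, which asks for 2 of these genes and leaves out the 56 and 36 barcodes of replicates 1 and 2 with a single one. Among members, UMIs of both kinds were found in 31 of 42 members of replicate 1 (73.8%, exact 95% interval 58.0 to 86.1%) and 31 of 37 of replicate 2 (83.8%), or 78.8% ± 7.05 (SD, n = 2). By side, 32 of 46 members above 20% held both (69.6%, 54.2 to 82.3%), 11 held mesothelial genes alone and 3 collagen genes alone. At or below 20%, 30 of 33 held both (90.9%, 75.7 to 98.1%), 3 held mesothelial genes alone and 0 collagen genes alone. When each member was thinned to 500 non-mitochondrial UMIs, which left out 26 members above 20% and none at or below, both kinds were found in 68.8 and 83.4% of members above 20%, against 56.3 and 60.0% at or below. Without thinning, the same barcodes gave 81.8 and 100% above 20%, against 88.9 and 93.3%, so in replicate 2 the kept members above 20% were higher before thinning too. Collagen UMIs outnumbered mesothelial ones in 8 members above 20% and in 8 at or below.

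The members lay along a range of how many rule genes they held. At the edge of the rule, 20 members above 20% and 1 at or below held exactly 2 rule genes, and 17 of these 21 held just 2 rule UMIs, all of them above 20%. At the other end, 12 members above 20% and 25 at or below held 6 or more, and all 12 genes were found in 1 and 4 members. Just outside the rule stood 56 barcodes in replicate 1 and 36 in replicate 2 with 1 rule gene and no Ptprc, of which 54 and 32 were above 20% mitochondrial. The members with exactly 2 rule genes had a median of 77.5 and 179 non-mitochondrial UMIs, against 45 and 43.5 in these barcodes. A further 2 and 1 barcodes held 2 or more rule genes together with Ptprc.

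A few deep members carried much of the UMI sum. The deepest, in replicate 2, had 20502 non-mitochondrial UMIs, 4928 genes, 2.43% mitochondrial UMIs and all 12 rule genes. It alone held 124 of the 350 Col3a1 UMIs of all members (35.4%), 91 of 382 of Gpm6a, a neuronal membrane glycoprotein that mesothelium also makes, and 59 of 223 of Muc16. It held no Krt7 and no Krt14 UMI. Another member of replicate 2, with 11881 non-mitochondrial UMIs and 2.81% mitochondrial, held 149 mesothelial but 5 collagen rule UMIs. In it stood 58 of 156 Krt19, 51 of 74 Krt7, 45 of 67 Krt8 and 38 of 50 Krt14 UMIs, all keratins. The same barcode held 32 of 39 UMIs of Slpi, a secreted protease inhibitor, all 14 of Myl7, a myosin light chain of the cardiac atria, and 13 of 14 of Tagln, an actin-binding protein of smooth muscle. Other cardiac muscle genes (Actc1, Tnnt2 and Myh6) were at 0 in it. These 2 barcodes were picked out after their values were seen, and they differ in which mesothelial and collagen genes they hold.

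Mesothelial genes that the rule did not use were present throughout. All 30 of a list of further mesothelial genes were detected in members, with 22064 and 14897 CPM in members above 20% and 10554 and 13327 CPM in members at or below 20%. Barcodes with Ptprc had 585 and 1043 CPM and red cell barcodes 1.23 and 0.363 CPM of this list. Other barcodes above 20% without Ptprc, 688 in number with a median of 41 non-mitochondrial UMIs, had 6026 and 5409 CPM of it, in 197 of them. Igfbp5, which binds insulin-like growth factors, was found in 53 of 79 members with 520 UMIs, against 1 UMI in the 97 Ptprc barcodes. Pkhd1l1, a large membrane protein, was found in 45 members and Sulf1, a heparan sulfate editing enzyme, in 37. Ptgis, prostacyclin synthase, was found in 36 members and Aldh1a2, which makes retinoic acid, in 26. Gata6 and Gata4, transcription factors of mesodermal organs, were found in 28 and 10. Calb2 (calretinin) and Cdh2 (N-cadherin), often used as mesothelial markers, gave 1 UMI each.

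Further matrix genes were found, while several common fibroblast markers were not. Of 24 further fibroblast matrix genes 21 were detected, with 6392 and 6011 CPM in members above 20%, against 2653 and 4178 CPM at or below, and 2546 and 1918 CPM in the other barcodes above 20%. Timp2 and Timp3, inhibitors of matrix proteases, had 99 and 102 UMIs, Sparc, a collagen-binding protein, had 95 and Fn1 (fibronectin) 98. Lum, Postn and Mmp2 were at 0 UMIs in members. Basement membrane genes gave 1475 and 1699 CPM above 20%, against 2079 and 2125 CPM, with 18 of 20 detected and the laminins Lama4 in 23 and Lama2 in 13 members. Of 19 mesenchymal progenitor genes 9 were detected. Cd34 was found in 22 members with 43 UMIs and Prrx1, a limb mesenchyme transcription factor, in 7 with 14. Thy1, Eng, Dpt, Pi16, Lepr, Cxcl12, Tcf21 and the tendon factors Scx and Mkx were at 0.

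Receptors of the bone morphogenetic protein (BMP) pathway, which drives bone and cartilage formation, were found. The extracellular antagonists Nog, Chrd and Grem1 were not. Bmpr1b was found in 16 members with 7 and 6 UMIs above 20% and 23 and 54 at or below. The deepest member, at or below 20% in replicate 2, alone held 30 of its 90 UMIs. Bmpr1a was found in 30 members with 6 and 7 UMIs above 20%, against 22 and 36. Tgfbr3, the co-receptor betaglycan, was found in 34, Bmpr2 in 19, and the ligand Bmp6 in 11. In all, 32 of 36 BMP and TGF-beta pathway genes were detected, at 3196 and 2548 CPM above 20%, against 4029 and 3944 CPM, and the antagonists Nog, Chrd and Grem1 and the ligand Gdf5 were at 0 UMIs.

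Of the cartilage list, the transcription factors Sox5 and Sox6 were present and the matrix genes were not. Sox6 had 21 and 21 UMIs in members above 20% and 89 and 141 in those at or below, and was found in 48. Sox5 had 16 and 13 UMIs above 20%, against 67 and 76, and was found in 37. Sox6 stood at 1291 and 1372 CPM above 20%, against 1276 and 1433 CPM. The whole list gave 2274 and 2287 CPM in members above 20%, 2251 and 2287 CPM in those at or below, and 1895 and 1918 CPM in the other barcodes above 20%. Col2a1, Acan, Comp, Col10a1 and 7 more of the 16 cartilage genes were at 0. The bone genes Sp7, Bglap, Ibsp, Spp1, Alpl and Dmp1 were at 0 too, where a count of 0 allows up to 3 UMIs, or 15.02 CPM over all members. Of the 15 genes of the bone list 5 were detected in members, with 39 UMIs. Tnfrsf11b, the decoy receptor that restrains osteoclasts, had 18 UMIs in 5 members. Of 8 tendon genes 3 were detected, with Tnmd at 0 and Fmod at 6 UMIs.

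Genes of complement, innate defence proteins that circulate in plasma, were found in most members. C3 was found in 53 of 79, with 2766 and 2614 CPM in members above 20% and 1692 and 1931 CPM in those at or below. C4b was found in 23 and the inhibitor Serping1 in 25. In all 11 of 12 complement genes were detected.

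Among regulators of epithelial state, Zeb1, Zeb2, Tcf4 and Tcf12 were found in 22, 17, 19 and 34 members, while Snai1 and Snai2 were at 0. Of 18 Hippo pathway and mechanosensing genes 15 were detected, including the stretch-gated channels Piezo1 and Piezo2 in 17 and 27 members and the coactivator Wwtr1 in 19. The direct target genes Ccn2 and Ankrd1 were at 0.

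Many markers of other cell types were at or near 0 in members, apart from the red cell genes given further on. Of 22 leukocyte genes 15 were at 0, including Cd3e, Cd79a, Itgam, Tyrobp and Laptm5. The list gave 246 and 523 CPM in members above 20% and 43.0 and 81.3 CPM at or below, against 38430 and 21605 CPM in Ptprc barcodes. Of 14 endothelial genes 9 were at 0, including Cdh5, Emcn, Flt1 and Tie1, while Esam had 27 UMIs and Kdr 7. Of 17 epithelial genes 11 were at 0, including Krt5, Krt1, Esrp1, Grhl2 and Trp63, and Krt14 made up 50 of the 61 UMIs of the list. All 9 hepatocyte genes were at 0, and 1 UMI of 8 adipocyte genes was found. The Schwann cell list gave 57 UMIs, of which Mbp (myelin basic protein) made up 50 in 23 members. The platelet list gave 184 and 1111 CPM in members above 20%, against 201 and 244 CPM at or below, and 14287 and 14615 CPM in the other barcodes above 20%.

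**Figure D3:**
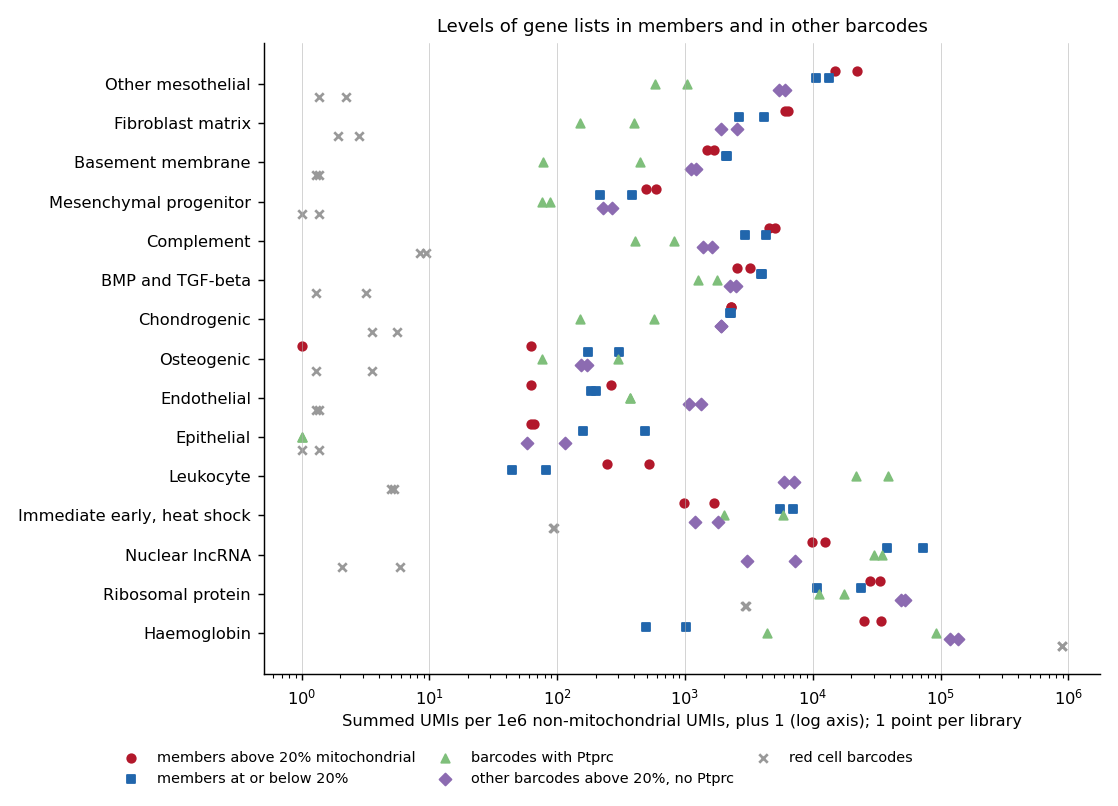
Summed level of 15 gene lists in CPM of non-mitochondrial UMIs plus 1 (log axis), 1 point per library, for members above 20%, members at or below 20%, barcodes with Ptprc, other barcodes above 20% without Ptprc and red cell barcodes. Members of both sides lie above the Ptprc and red cell barcodes for the mesothelial, matrix, complement and cartilage lists, with the other barcodes above 20% between, and on the cartilage list these are close to the members.

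The leading genes of the members, apart from the rule genes, were ranked against all other barcodes without Ptprc, of whose non-mitochondrial UMIs 86.6% were haemoglobin. The measure was the ratio of CPM with 10 CPM added to each side, among genes with at least 5 UMIs in members of each library and in at least 10% of members. Malat1, a nuclear long non-coding RNA, led with 432-fold. Mast4, a microtubule-associated kinase, followed with 215-fold and was found in 56 members, and the zinc finger factor Zbtb20 with 188-fold in 55. Some of these genes were also high in Ptprc barcodes. Malat1 had 57911 and 31703 CPM in members, against 28125 and 33078 CPM in Ptprc barcodes. Zbtb20 had 2209 and 3571 CPM in members, against 918 and 1788 CPM, and Celf2 2128 and 2577 CPM, against 820 and 894 CPM. Igfbp5 and Pkhd1l1 of the mesothelial list and C3 of the complement list were among the first 20, at 155-, 134- and 118-fold. The guidance ligands Efna5 and Flrt2 stood at 149- and 141-fold. Bnc2, a paralogue of the rule gene Bnc1, reached 148-fold, with 295 UMIs in 43 members, against 1 UMI in the other barcodes without Ptprc. Adamtsl1, Celf2, Plxna4, Rora, 9530026P05Rik, Plxdc2, Kcnd2, Meg3, Ror1 and Il1rapl1 were also among them, the last at 95.3-fold. Genes longer than 100 kb gave 28.7 and 29.5% of the non-mitochondrial UMIs of members above 20% and 32.3 and 31.5% of those at or below, against 28.0 and 34.2% in Ptprc barcodes, 21.9 and 23.4% in the other barcodes above 20% and 0.974 and 0.993% in red cell barcodes.

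Malat1 was low in members above the mitochondrial limit, though the difference did not pass the test. It took 1.12 and 0.849% of non-mitochondrial UMIs in members above 20% (0.984% ± 0.190, SD, n = 2) and 6.88 and 3.53% in members at or below 20% (5.21% ± 2.37). The library values of the 2 sides did not overlap, but single members did. In replicate 1, 1 member held 120 of the 182 Malat1 UMIs above 20%. Malat1 was missing from 20 of 46 members above 20% and from 1 of 33 at or below. Of those 20, 15 lay at 80 to 100% mitochondrial UMIs, where members had a median of 124.5 non-mitochondrial UMIs. In order of mitochondrial share, it took in replicate 1 8.73% at 0 to 5%, 5.49% at 5 to 10%, 3.24% at 10 to 15%, 0.945% at 15 to 20%, 0.561% at 20 to 25%, 2.95% at 25 to 50%, 0.104% at 50 to 80% and 0.129% at 80 to 100%. In replicate 2 it took 3.70, 0.683, 0.886, 1.64, 1.71, 0.667, 0.615 and 0.181% in the same bins. The bin from 0 to 5% was highest in both libraries, but replicate 2 had no graded decline below the limit. The bins hold 1 to 11 members of a library each, so single members set several of these values. In Ptprc barcodes it took 3.06 and 7.47% above 20% (27 and 7 barcodes), against 2.78 and 2.55% at or below (58 and 5). The fitted log2 fold change in members was -2.37 (SE 0.90), with an edgeR quasi-likelihood adjusted p of 0.203. Over the alternatives the adjusted p ran between 2.40e-10 (limit at 50%) and 0.581 (limit at 10%), and DESeq2 gave 3.76e-05.

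**Figure D4:**
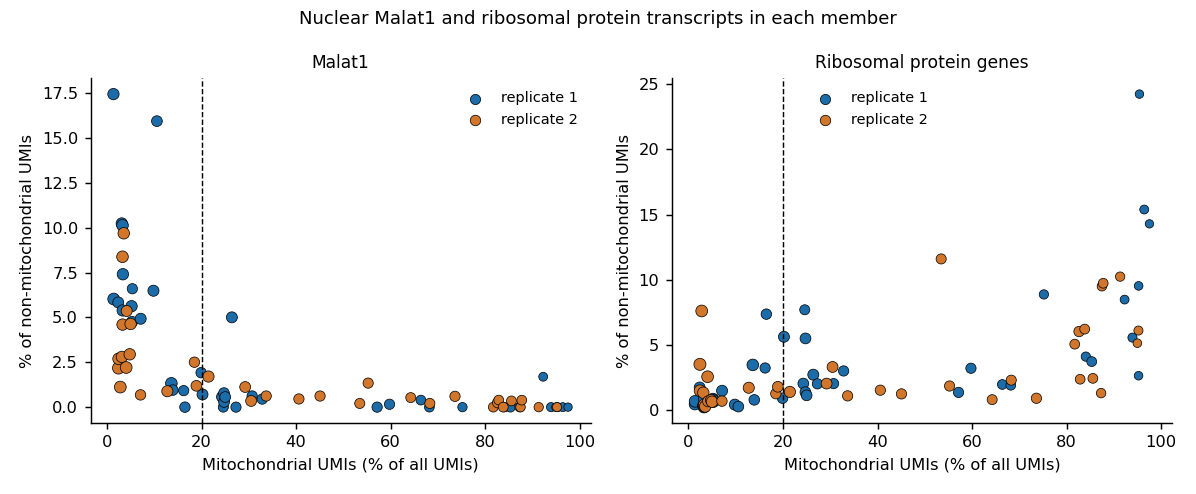
Malat1 (left) and all ribosomal protein genes (right) as percent of non-mitochondrial UMIs, against the mitochondrial share, 1 point per member coloured by replicate and larger for deeper barcodes, with the 20% limit dashed. Malat1 reaches 17.5% at the low end and no more than 5.01% above 20%, and ribosomal protein transcripts reach 24.2% among the shallow members at the high end.

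Across the limit, 12 of 733 genes tested (1.64%) passed an adjusted p of 0.05 in edgeR's quasi-likelihood test on UMIs summed per library and side, with library as a block. Of these, 7 were higher in members above 20% (0.955%) and 5 were lower (0.682%), and all 12 had the same sign in both libraries. Unadjusted p was under 0.05 for 121 genes, and the median log2 fold change over all tested genes was -0.09. The 12 rule genes, Ptprc and mitochondrial genes were not tested. With 4 sums the fit had 1 residual degree of freedom and borrowed its spread across genes. Leaving haemoglobin genes out of the counts ended all other calls (0 higher, 0 lower, 101 genes with unadjusted p under 0.05), and DESeq2 called 4 higher, all haemoglobins, and 1 lower, Malat1.

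The 3 genes other than haemoglobins that rose were secreted or surface proteins. Igfbp6, a binding protein of insulin-like growth factor II made by mesothelium (chr15:102144362-102149511 in mm10), had 2581 and 2679 CPM in members above 20%, against 860 and 620 CPM at or below. It was 3.55-fold higher (log2 fold change 1.81, SE 0.45, adjusted p = 0.0362 by edgeR). Rarres2, which encodes the chemoattractant and adipokine chemerin (chr6:48569696-48572789), had 1721 and 1633 CPM above 20%, against 330 and 376 CPM, or 4.75-fold higher, at a log2 fold change of 2.21 with an SE of 0.48 and an edgeR adjusted p of 0.0110. Both sides were tight and far apart for these 2 genes, and their UMIs came from 22 and 19 members above 20%. Npr3, the clearance receptor of natriuretic peptides, had 430 and 980 CPM above 20%, against 14.3 and 224 CPM (adjusted p = 0.04998 by edgeR, just under the threshold). It rested on 22 UMIs in 7 members above 20%, of which 3 members held 17.

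Of 16 tested genes of the further mesothelial list, Igfbp6 and Rarres2 rose (7 of 733 over all genes, 0.955%) and none fell, with a median log2 fold change of 0.31 over the list, against -0.09 over all tested genes. Igfbp5, Clu and Sulf1 had fitted values of 1.05, 1.25 and 0.94, and Pkhd1l1, Ptgis and Ezr of -0.12, 0.05 and -0.06, whose sign turned under at least 1 alternative each. Cav1, the caveolar coat protein, had 246 and 0 CPM above 20%, against 817 and 203 CPM, and a fitted value of -2.26 that did not pass. Of 12 tested fibroblast matrix genes none passed, while 10 had a positive fitted value (333 of 733 over all genes) and the median was 1.21. Fbln2, an elastic fibre protein, had 860 and 719 CPM above 20%, against 172 and 152 CPM, with an adjusted p of 0.0786 by edgeR, was called under 2 of 13 alternatives and turned to a log2 fold change of -0.33 at a limit of 50%. Timp3 ran the other way, with 61.5 and 131 CPM above 20%, against 631 and 559 CPM, without passing.

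The 5 genes that fell comprised a non-coding RNA, a phosphodiesterase, an arginine and serine rich protein gene and a pair of stress-induced transcription factors. Meg3, an imprinted nuclear long non-coding RNA (chr12:109541001-109571726), had 3 and 0 UMIs in members above 20% and 107 and 88 UMIs in members at or below 20%. Summed over libraries it was 12.2-fold lower above 20% (exact 95% counting interval 4.12 to 59.7), and edgeR fitted a log2 fold change of -3.82 with an SE of 0.75 and an adjusted p of 0.00409. Pde10a, which breaks down cyclic nucleotides, had 2 and 1 UMIs above 20%, against 62 and 56, and was 7.39-fold lower (2.47 to 36.3, adjusted p = 0.0474 by edgeR). Rsrp1, the arginine and serine rich one, had 0 UMIs in both libraries above 20% and 34 and 41 at or below, in 18 members. Against a floor of 3 UMIs over the side above 20% (95.01 CPM), it was at least 4.70-fold lower (adjusted p = 0.0362 by edgeR). Without the library block these 5 genes were not called (5 genes higher, 0 lower).

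Atf3 and Fosb, transcription factors induced rapidly by stress, also had no UMI above 20%. Atf3 had 22 and 64 UMIs at or below 20% and Fosb 22 and 60, which makes them at least 5.08- and 4.87-fold lower above 20% (adjusted p = 0.0362 each by edgeR). These UMIs were concentrated, since 3 members held 75 of the 86 of Atf3 and 81 of the 82 of Fosb. When the 3 members with the most immediate early and heat shock UMIs were left out, neither gene had enough UMIs to be tested. In this setting, chosen after seeing the data, Igfbp6 was not called (adjusted p = 0.0578 by edgeR), while the other 9 genes were. The whole list gave 983 and 1699 CPM above 20%, against 5578 and 6983 CPM, and those 3 members held 633 of its 1118 UMIs. Of 8 tested list genes 2 fell (5 of 733 over all genes, 0.682%), 7 had a negative fitted value (400 of 733), and the median was -3.79, or -2.31 with the 3 genes at 0 set to their bound. Jund and Btg2 had 5 and 1 UMIs above 20%, against 158 and 91, without passing. Of the 5 tested nuclear non-coding RNAs, Meg3 fell (5 of 733 over all genes, 0.682%). Their median was -1.63, against -0.09 over all tested genes.

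Haemoglobin took a larger share of the non-mitochondrial UMIs in members above 20%, which were shallower (median depth 402.5, against 4513). In number, haemoglobin UMIs came to 926 in the 46 members above 20% and 120 in the 33 at or below. They were 2.50 and 3.39% of non-mitochondrial UMIs above 20%, against 0.102 and 0.0498% at or below. Hba-a1, Hba-a2, Hbb-bs and Hbb-bt all rose, with log2 fold changes of 5.96, 5.67, 4.68 and 5.02 and adjusted p between 6.49e-07 and 8.09e-06 by edgeR. The division of reads within the alpha pair and within the beta pair is uncertain, since each pair is near-identical in sequence. All 46 members above 20% and 31 of 33 at or below held some haemoglobin. It passed 5% of the non-mitochondrial UMIs in 13 members above 20% and in 0 at or below, and 3 barcodes held 701 of the 926 UMIs above 20%. Erythroid genes other than haemoglobin gave 1229 and 1437 CPM above 20%, against 358 and 254 CPM, with 11 of 14 detected and Slc4a1 among those at 0. These UMIs came from 6 of 46 members above 20% (42 UMIs) and from 21 of 33 at or below (50 UMIs). In red cell barcodes the same list gave 10500 and 9814 CPM. With the 13 members left out, a setting chosen after seeing the data, the 12 genes were all still called, but the haemoglobin log2 fold changes were 3.15 for Hba-a1, 2.72 for Hba-a2, 2.80 for Hbb-bs and 2.89 for Hbb-bt. At a limit of 50% they were 1.61, 1.08, 2.29 and 1.21, and Hba-a2 and Hbb-bt were no longer called.

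Ribosomal protein genes were higher in level above 20% in both libraries, with no gene called. The list gave 33618 and 28226 CPM in members above 20% and 10726 and 23970 CPM in members at or below 20%. These library values of the sides did not overlap but stood close in replicate 2. Of 58 tested genes none passed (12 of 733 over all genes, 1.64%) and 57 had a positive fitted value (333 of 733). Their median log2 fold change was 1.11, against -0.09 over all tested genes. Per member, the median share of these genes was 3.10% above 20% and 0.786% at or below. Gm42418, a gene model that overlaps ribosomal RNA sequence, took 20.4 and 22.1% of non-mitochondrial UMIs above 20%, against 14.4 and 12.2%, and its part in the other levels was not tested.

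None of the 4 tested BMP and TGF-beta receptor genes passed, nor did Sox5 or Sox6. Fitted log2 fold changes were -0.09 for Bmpr1b, 0.25 for Bmpr1a, 0.05 for Tgfbr3, 0.05 for Sox5 and -0.05 for Sox6 (SE 0.44 to 0.67). All 5 changed sign under at least 1 alternative, and the size of these errors leaves differences of that order undetectable at this depth. The 4 tested complement genes had a median of 0.82 without a call, led by C4b with 1168 and 392 CPM above 20%, against 57.4 and 427 CPM. The EMT list (5 tested), the Hippo list (3) and the basement membrane list (3) had medians of 0.39, -0.63 and -0.89, also without a call. The epithelial, endothelial, smooth muscle, leukocyte and bone lists had no gene with enough UMIs to be tested.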

How the data were processed

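The authors deposited a matrix of whole-number UMI counts (genes by barcodes) for each library, without normalization. Cell Ranger 7.1.0, Seurat 5 and mm10 are named in the submitters' processing notes, and Cell Ranger 7.1.0 also in the file headers. How barcodes were called, whether doublets were removed and whether intronic reads were counted are not given in the sources used here, and no doublet caller was run. Of 32285 gene IDs, 32235 were matched to the GENCODE M21 annotation of mm10, which gave the coordinates.

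Members and the 28 gene lists were chosen with earlier results of these data known. UMIs were summed per library and side of the 20% limit and tested in edgeR 4.0.16 (R 4.3.3) with filterByExpr, TMM factors over non-mitochondrial genes and Benjamini-Hochberg adjustment over 733 genes. Library was a block because both sums of a library come from the same suspension. Simulated counts on 645 genes gave calls for 14.9, 61.7, 89.6 and 91.3% of genes changed by log2 1, 2, 3 and 4, and for 0.219% of unchanged genes. The simulation gave every gene the same fixed dispersion, not one estimated from these counts, so these rates may not hold for the real counts. DESeq2 1.42.0 was an alternative. Named were the rule genes, all calls whose sign was shared by the libraries (at most 12 per direction), 20 leading genes by fold, and in each list up to 6 genes with most UMIs and key genes at 0. Aldh1a2, Gata4, Gata6, Calb2, Cdh2, Cav1, Clu, Krt7, Krt8, Slpi and Gm42418 were named after their values were seen. Thinning drew 500 UMIs per barcode 100 times. Ddit3 was left out, its symbol being shared, and a few of the genes that this rule names are not reported here.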

Additional observations from a re-analysis of the deposited data

How the results depend on the processing

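As reported, edgeR called 7 genes higher and 5 lower in members above 20%. Higher and lower calls were 10 and 10 with RLE size factors, 4 and 0 with total UMIs alone, 0 and 0 without haemoglobin genes (101 genes with unadjusted p under 0.05), 0 and 0 at a limit of 10% (46 genes), 12 and 2 at 50%, 8 and 5 with at least 3 rule genes, 5 and 0 with no replicate block, 6 and 9 with no filter on low counts, 15 and 9 with at least 20 UMIs, and 4 and 1 in DESeq2. The cause of these changes was not tested. All 12 genes were called again with RLE factors, with at least 3 rule genes and with at least 20 UMIs. Settings chosen after seeing the data gave 8 and 7 without members above 5% haemoglobin, 7 and 5 without members under 500 non-mitochondrial UMIs (11 of the 12 shared), and 8 and 4 without the 3 members richest in immediate early UMIs (9 shared). None of the 12 called genes turned direction under these alternatives, but genes without a call did, among them Fbln2 (log2 fold change -0.33), Mast4 (-1.10), Bmpr1a (-1.85), Tgfbr3 (-2.42) and Sox5 (-1.11) at a limit of 50%. With 1 library left out no test was possible, since no residual degree of freedom remained.

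Members made up 3.14% of barcodes when at least 3 rule genes were needed, 7.28% of barcodes with at least 100 detected genes and 4.42% when Ptprc was allowed. The share of members above the limit was 44.9% with at least 3 rule genes, 51.5% with at least 100 genes, 69.5% at a limit of 10% and 38.3% at 50%. Both kinds of rule gene were found in 91.3% with at least 3 rule genes and in 64.9% after thinning. Leaving out a replicate gave ranges of 4.17 to 4.36%, 57.1 to 59.5% and 73.8 to 83.8%. Depth limits the members above 20%, where a gene at 0 could still reach 95.01 CPM.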

Other observations

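Of growth factor and Wnt pathway genes, 16 of 18 were detected in members. Tcf7l2, a transcription factor of Wnt signalling, had 2 and 1 UMIs in members above 20% mitochondrial UMIs and 36 and 31 UMIs in members at or below 20%, and was found in 24 members. Fgf1 was found in 18 members with 5 and 3 UMIs above 20%, against 19 and 30, and Wnt5a in 15. Lef1 and Fgfr3 were at 0 UMIs. Neither gene of this list that could be tested passed.

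Of 15 retinoid genes 9 were detected beside Aldh1a2. Aldh1a1 was found in 18 members with 45 UMIs among 199691 non-mitochondrial ones. Red cell barcodes held 516 UMIs of it among 6008088. Relative to these totals the level was higher in members, but Aldh1a1 was not particular to them. Crabp1, Crabp2, Cyp26a1 and Cyp26b1 were at 0. Of 11 platelet genes, Nrgn had 20 UMIs in 11 members and Itgb3 12 UMIs in 11, while Gp1bb, Gp6 and Tubb1 were at 0.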
